A study of Mus musculus with 4 samples.

Results

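Centrosome, centriole, intraflagellar transport and centromere genes were followed in testis RNA of mice labelled Ppp2ca-cKO and of WT mice. A gene was taken when its symbol began with Cep, Ift, Bbs, Haus or Poc and a digit, or with Tubgcp, Nphp, Tctn, Cenp, Cntr or Pcnt, and when the authors' deposited table of changed transcripts held it. This gave 102 Ensembl transcripts of 51 genes, out of 11304 transcripts of 7453 genes in the table. Reference annotation GENCODE vM21 has 103 coding genes whose symbols fit, and the other genes are not analysed here. The symbols did not hold to 1 structure: apart from Cenpj, a centriole assembly protein, most Cenp genes encode proteins of the centromere and kinetochore, which are not parts of the centrosome. They are described apart.

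The cKO group had the genotype Ppp2ca-/- and 2 libraries, and the WT group had 2 libraries. Both were made from left testes of C57BL/6 mice at postnatal day 56, with a TruSeq RNA kit. The Ppp2ca product is a catalytic subunit of the phosphatase PP2A, and the series title places it in the meiotic prophase of spermatocytes. The labels used here do not name the Cre driver or the deleted exons, and they do not say whether libraries of 1 genotype came from separate animals, so p-values measure only the spread between these libraries. No transcript of Ppp2ca or of its paralog Ppp2cb was in the table, so the targeted gene is not analysed here and the genotypes are as labelled.

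The centrosome is a pair of centrioles in a protein matrix that nucleates microtubules. The older centriole carries appendages that anchor it to the membrane when it becomes the base of a cilium or flagellum. The transition zone above it acts as a gate, and intraflagellar transport (IFT) trains, the IFT-A and IFT-B complexes, carry tubulin and other cargo past this gate on kinesin and dynein motors. The BBSome is an adaptor that rides on these trains. In the testis the same parts serve spindle poles in dividing germ cells and, in spermatids, the building of the sperm tail.

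Library totals were 18684045 and 19834986 reads in the cKO and 17612367 and 19783822 reads in the WT. Levels are given as FPKM, fragments per kilobase of transcript scaled to these totals. Fold changes are log2 values of cKO over WT with the authors' size factors, which were 1.24 and 1.25 in the cKO and 0.818 and 0.854 in the WT. Scaling by library totals in their place moves the log2 fold changes up by about 0.53. A transcript is called changed at an adjusted p under 0.05 in edgeR's quasi-likelihood test with Benjamini-Hochberg adjustment over the 64840 transcripts the authors had tested. The table holds only transcripts that the authors had called on these same libraries, so every count below describes the list and is not independent evidence of a direction.

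With the authors' size factors, most of the listed genes had lower fitted levels in the cKO testis. By the authors' deposited table, 89 of the 102 transcripts were lower (87.3%) and 13 were higher (12.7%), beside 66.9% and 33.1% of all listed transcripts. Of the 99 that passed the filter on low counts, 50 were called lower by edgeR (50.5%) and 3 were called higher (3.03%), and all 99 had an unadjusted p under 0.05. Among all listed transcripts past the filter, 41.3% were called lower and 10.4% higher. In the same edgeR test 10713 of these 10716 had an unadjusted p under 0.05. With 1 transcript per gene, the one with the highest mean normalized count, 27 of 49 genes fell (55.1%) and 1 rose (2.04%), beside 39.8% and 11.1% over all genes in the table. The median log2 fold change of these 49 transcripts was -1.51, with quartiles of -1.90 and -1.12, beside -1.44 over all genes. Setting the transcripts with no reads in a genotype at their bounds left this median at -1.51. Of the 49, 45 had a fitted value below 0 (91.8%), against 63.9% of all genes in the table.

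The share called depended on the scaling and on single WT libraries. With library totals, 29 of the 99 transcripts were called lower (29.3%) and 8 higher (8.08%), beside 30.4% and 27.8% of all listed transcripts. Of the 27 genes that fell, 15 were called lower with library totals too, among them Bbs5, Cenpi, Cenpo, Cep57, Cep63, Cep85l, Cep112, Cep128, Cep131, Cep170, Cep295nl, Ift57, Ift172 and Poc1b. The calls of the other 12 were lost, among them those of Bbs9, Cenpn, Cep57l1, Cep83, Cep89, Cep162, Cep164, Cep350, Ift43, Ift74 and Ift81, and Cenpa and Ift20 were called higher beside Ift80. Without WT library 1 or without WT library 2, edgeR called none of the transcripts of these genes in either direction. All listed transcripts had 0 calls in these 2 fits as well. Calls of a rise were more frequent when cKO library 1 or cKO library 2 was left out, both here and over all listed transcripts. Without cKO library 1 the median log2 fold change of the transcripts was -1.71, beside -1.67 over all listed transcripts. Without cKO library 2 it was -1.81, beside -1.84.

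**Figure D1:**
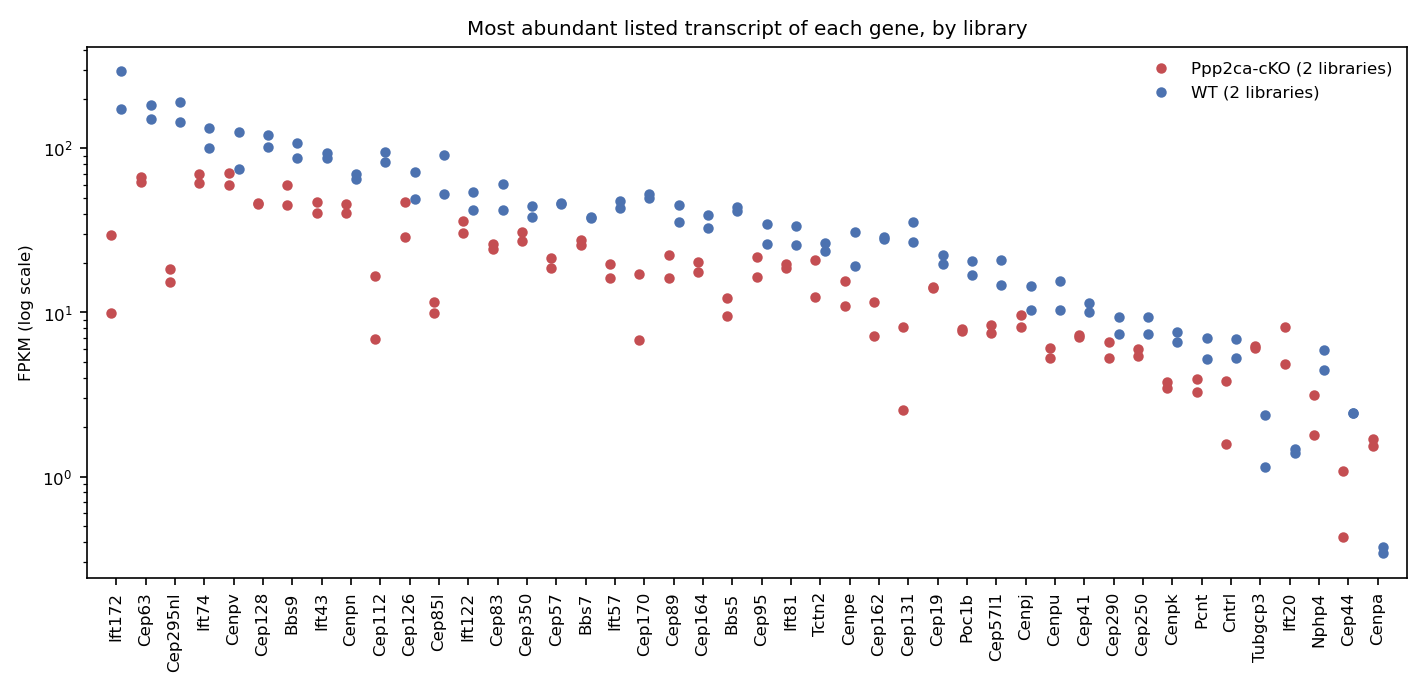
FPKM (log scale) of the most abundant listed transcript of each gene in the 2 cKO libraries (red, left) and the 2 WT libraries (blue, right), ordered by mean level. The 44 genes shown are above 0 in every library, and only Tubgcp3, Ift20 and Cenpa have both cKO points above both WT points; Cenpc1, Cenpi, Cenpo, Ift80 and Ift88 have a library at 0 and are left out.

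The Cep genes, centrosomal proteins of many kinds, were the largest family. Of 36 coding genes with such a symbol 21 were in the table, with 55 transcripts. Of the 54 tested transcripts 29 fell and 1 rose, beside 41.3% and 10.4% of all listed transcripts. By the most abundant transcript, 14 of 21 genes fell and edgeR called 0 higher, beside 39.8% and 11.1% of all genes in the table. The median log2 fold change was -1.69 (-1.17 with library totals), beside -1.44 (-0.90 with library totals) over all genes.

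Cep63 (chromosome 9, 102584588 to 102626534, minus strand, GRCm38) encodes a protein needed for centriole duplication. Its most abundant transcript stood at 66.6 and 62.5 FPKM in the cKO libraries and at 183 and 151 FPKM in the WT libraries. Both cKO libraries lay well below both WT libraries, a log2 fold change of -1.90 ± 0.23 (SE; adjusted p = 0.018, edgeR). Cep128 (chromosome 12, 90998492 to 91384409, minus strand), which encodes a subdistal appendage protein, had 46.2 and 45.8 FPKM in the cKO and 119.9 and 102 FPKM in the WT, a change of -1.80 ± 0.22 on the log2 scale (adjusted p = 0.019, edgeR). These levels were among the highest of the family, and libraries of 1 genotype differed little. The calls of Cep63 and Cep128 held with library totals, where the log2 fold changes were -1.38 and -1.27.

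The largest falls by most abundant transcript in the family were in Cep295nl, Cep112 and Cep85l. Cep295nl (chromosome 11, 118332360 to 118342500, minus strand), named for its likeness to Cep295, had 15.3 and 18.5 FPKM in the cKO and 192 and 145 FPKM in the WT. This was the lowest p of the list, with a log2 fold change of -3.85 ± 0.28 (adjusted p = 0.015, edgeR). Cep85l (chromosome 10, 53273443 to 53379947, minus strand), a paralog of Cep85, had 11.6 and 9.98 FPKM in the cKO and 91.2 and 52.7 FPKM in the WT, a log2 fold change of -3.26 ± 0.34 (adjusted p = 0.016, edgeR). Cep112 (chromosome 11, 108425192 to 108860615, plus strand) had 8 listed transcripts, more than any other gene of the list. Its most abundant one, a processed transcript of 788 bases with no coding part, had 6.85 and 16.6 FPKM in the cKO and 94.5 and 82.5 FPKM in the WT (log2 fold change -3.46 ± 0.49, adjusted p = 0.023, edgeR). The cKO libraries differed more from each other here than the WT libraries did, and neither came near the WT level. The 1161-base coding transcript of Cep112 had 3.05 and 2.61 FPKM in the cKO and 27.2 and 19.4 FPKM in the WT (log2 fold change -3.57, adjusted p = 0.016, edgeR).

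Proteins of the distal appendages, which dock the centriole at the membrane, had lower levels in the cKO in cases that were picked with their values in view. The main Cep164 transcript had 17.6 and 20.4 FPKM in the cKO and 32.9 and 39.1 FPKM in the WT, with a log2 fold change of -1.45 ± 0.26. Cep83 had 26.2 and 24.5 FPKM in the cKO and 60.6 and 42.1 FPKM in the WT, with a log2 fold change of -1.54 ± 0.26. Cep89 had 16.2 and 22.3 FPKM in the cKO and 35.8 and 45.2 FPKM in the WT, with a log2 fold change of -1.61 ± 0.31. In edgeR the adjusted p was 0.033 for Cep164, 0.029 for Cep83 and 0.038 for Cep89. Cep131, a protein of centriolar satellites, was among the more strongly lowered, with 2.53 and 8.12 FPKM in the cKO and 26.9 and 35.8 FPKM in the WT (log2 fold change -3.08 ± 0.62, adjusted p = 0.043, edgeR). Cep290, a transition zone protein, missed the threshold in its full-length form, at 6.59 and 5.28 FPKM in the cKO and 9.39 and 7.35 FPKM in the WT (log2 fold change -1.02 ± 0.25, adjusted p = 0.071, edgeR).

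Scaffold and centriole proteins outside the Cep names were few in the table. Pcnt (pericentrin, chromosome 10, 76351263 to 76442786, minus strand), the scaffold of the matrix around the centrioles, had 3.28 and 3.93 FPKM in the cKO and 7.02 and 5.20 FPKM in the WT for its 9331-base transcript. The genotypes did not overlap, but the log2 fold change of -1.28 ± 0.28 just missed the threshold (adjusted p = 0.0502, edgeR). Poc1b, a protein that keeps centrioles stable, fell, with 7.75 and 7.93 FPKM in the cKO and 20.6 and 16.99 FPKM in the WT (log2 fold change -1.79 ± 0.25, adjusted p = 0.023, edgeR). Cntrl (centriolin), a protein of the older centriole, had 1.58 and 3.84 FPKM in the cKO and 6.91 and 5.31 FPKM in the WT for its most abundant transcript and was not called (log2 fold change -1.69 ± 0.49, adjusted p = 0.110, edgeR). Tubgcp3, a subunit of the gamma-tubulin ring that starts microtubules, went the other way. It had 6.27 and 6.10 FPKM in the cKO and 2.37 and 1.15 FPKM in the WT, a log2 fold change of 1.30 ± 0.41 that was not called (adjusted p = 0.146, edgeR). None of the 8 Haus genes, the augmin subunits that branch spindle microtubules, was in the table.

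Of 14 coding Ift genes, which encode subunits of the trains, 9 were in the table. Of the 8 tested by their most abundant transcript 5 fell and 1 rose, beside 39.8% and 11.1% of all genes in the table. The median of their log2 fold changes was -1.26 (-0.74 with library totals), a smaller fall than the -1.44 over all genes. Ift74 (chromosome 4, 94614491 to 94693229, plus strand), which binds tubulin together with Ift81 in the IFT-B complex, had 69.5 and 61.5 FPKM in the cKO and 132 and 101 FPKM in the WT. Its log2 fold change was -1.36 ± 0.24 (adjusted p = 0.033, edgeR), and -0.84 with library totals, where it was not called (adjusted p = 0.117). The main Ift81 transcript had 19.7 and 18.7 FPKM in the cKO and 33.9 and 25.9 FPKM in the WT, with a log2 fold change of -1.17 ± 0.24 (adjusted p = 0.047, edgeR).

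Ift57 and Ift43, picked with their values in view, showed separate genotypes as well. Ift57, a peripheral IFT-B subunit, had 16.3 and 19.7 FPKM in the cKO and 43.2 and 47.6 FPKM in the WT (log2 fold change -1.87 ± 0.27, adjusted p = 0.023, edgeR). Ift43, an IFT-A subunit, had 40.2 and 47.1 FPKM in the cKO and 93.4 and 87.4 FPKM in the WT (log2 fold change -1.59 ± 0.25, adjusted p = 0.027, edgeR). Ift122, also of IFT-A, was not called, with 30.7 and 36.3 FPKM in the cKO and 42.4 and 54.2 FPKM in the WT (log2 fold change -1.07 ± 0.27, adjusted p = 0.079, edgeR). Ift20, an IFT-B subunit that also sits at the Golgi, was listed by a retained-intron transcript alone, at 8.12 and 4.88 FPKM in the cKO and 1.39 and 1.47 FPKM in the WT (log2 fold change 1.66 ± 0.47, adjusted p = 0.108, edgeR).

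The motors and the IFT subunits with other names were mostly lower in the cKO. Of 25 such genes 9 were in the table, and 7 of the 8 tested fell, beside 39.8% of all genes in the table. Their median was -2.01 on the log2 scale, beside -1.44 over all genes. Kif17, a kinesin-2 motor, had 4.29 and 9.89 FPKM in the cKO and 66.1 and 116 FPKM in the WT (log2 fold change -4.22 ± 0.58, adjusted p = 0.022, edgeR). Kif3a and Kifap3, subunits of the main anterograde motor, had log2 fold changes of -1.86 and -2.18, and Wdr60, of the retrograde dynein, of -2.10. Traf3ip1 (-2.34), Ttc21a (-1.91) and Rabl2 (-1.79) also fell. Cluap1 was the tested gene that was not called, at -1.05 (adjusted p = 0.083, edgeR). Kif3c was listed but not tested and lay the other way, at 0.39 and 0.20 FPKM in the cKO and 0 in both WT libraries.

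BBSome subunits followed. Of 8 Bbs genes 3 were in the table, and 2 of them fell by the most abundant transcript, beside 39.8% of all genes. Bbs5 (chromosome 2, 69647171 to 69667571, plus strand) had 9.49 and 12.3 FPKM in the cKO and 41.3 and 43.7 FPKM in the WT, a log2 fold change of -2.50 ± 0.29 (adjusted p = 0.018, edgeR). Bbs9 had 45.5 and 60.3 FPKM in the cKO and 87.0 and 108 FPKM in the WT for a 638-base transcript (log2 fold change -1.43 ± 0.29, adjusted p = 0.045, edgeR). Bbs7 had 25.6 and 27.6 FPKM in the cKO and 38.1 and 37.5 FPKM in the WT and missed the threshold at -1.04 ± 0.23 (adjusted p = 0.054, edgeR). Of 12 BBSome partners with other names 7 were listed. Arl13b, Arl3 and Lztfl1 fell while 4 were not called, beside 39.8% called lower over all genes in the table. Of those 4, Trim32 (1.73) and Tulp3 (1.19) had fitted values above 0, and Rab3ip (-1.06) and Arl6 (-1.24) below.

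Among the transition zone proteins, Nphp4 had 1.79 and 3.13 FPKM in the cKO and 4.49 and 5.88 FPKM in the WT and was not called (log2 fold change -1.60 ± 0.41, adjusted p = 0.081, edgeR). Tctn2, a member of the tectonic complex of the gate, had 12.4 and 20.8 FPKM in the cKO and 23.7 and 26.5 FPKM in the WT and was not called either (log2 fold change -1.12 ± 0.34, adjusted p = 0.130, edgeR). Of 24 further transition zone and ciliopathy genes 12 were listed, and 5 of the 11 tested fell, beside 39.8% of all genes in the table. Their median log2 fold change was -1.44, and that over all genes was -1.44 too. Rpgrip1 (-2.66) and Rpgr (-2.50), picked with their values in view, were among those that fell. Tmem67 (1.20) and Cc2d2a (1.15) had fitted values above 0 and were not called.

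Among 32 centriole and centrosome scaffold genes with other names, 14 were listed. Of the 13 tested, 6 fell and 1 rose, beside 39.8% and 11.1% of all genes in the table. Their median log2 fold change was -1.37, beside -1.44 over all genes. Deup1, which builds the deuterosomes of multiciliated cells, had 8.80 and 11.1 FPKM in the cKO and 69.8 and 46.6 FPKM in the WT (log2 fold change -3.07, adjusted p = 0.016, edgeR). Odf2, an appendage protein that is also an outer dense fibre protein of the sperm tail, fell by 2.68 on the log2 scale, and it is on the list of elongating spermatid markers too. Both listed gamma-tubulin and augmin partners, Tubg1 and Mzt2, had fitted values of -1.08 and -1.09 and were not called; edgeR called 0 of 2 here.

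**Figure D2:**
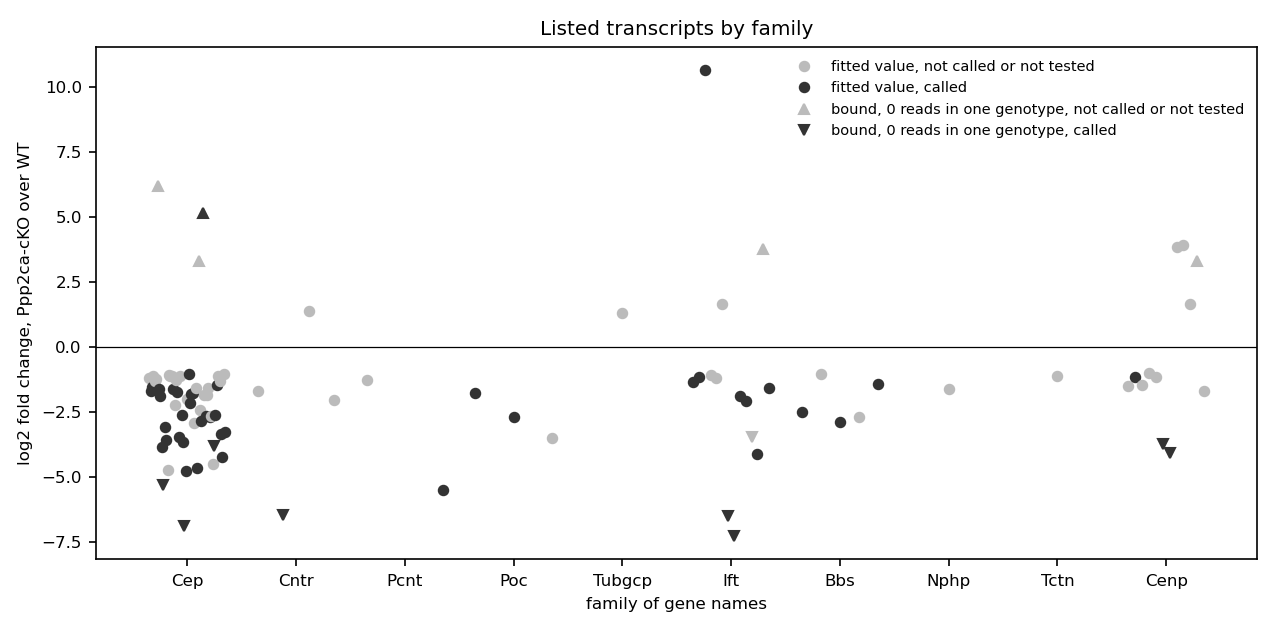
Log2 fold change of the 98 listed transcripts shown, cKO over WT, by family of gene names. Dark points were called by edgeR and grey ones were not called or not tested; triangles mark transcripts with 0 reads in both libraries of a genotype, drawn at the bound that 3 counts over the group allow and pointing up or down with the direction. Most points lie between -1 and -5, and the highest is the Ift80 transcript, which rests on 1 rounded read in the WT.

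Apart from Cenpj, 9 of 20 coding Cenp genes were in the table. Of the 8 tested by the most abundant transcript 3 fell (37.5%), close to the 39.8% of all genes in the table, and edgeR called 0 higher. Their median was -1.48 on the log2 scale, beside -1.44 over all genes. Cenpj itself was not called, at -1.01. Cenpn, which binds centromeric nucleosomes, had 46.0 and 40.6 FPKM in the cKO and 69.7 and 65.0 FPKM in the WT, a log2 fold change of -1.17 ± 0.23 (adjusted p = 0.039, edgeR) that was not called with library totals (-0.64, adjusted p = 0.216). Cenpe, a kinesin of the kinetochore, had 15.5 and 10.9 FPKM in the cKO and 31.0 and 19.1 FPKM in the WT and was not called (log2 fold change -1.45 ± 0.31, adjusted p = 0.052, edgeR). The WT libraries of Cenpe differed from each other by more than cKO library 1 did from the lower of them. The other calls, Cenpi and Cenpo, which encode subunits of the inner kinetochore, rest on low counts. Cenpi was listed by a 1728-base processed transcript alone, with 0 reads in both cKO libraries and 0.38 and 0.57 FPKM in the WT. Cenpo was listed by a 672-base coding transcript alone, with 0 reads in both cKO libraries and 1.97 and 2.12 FPKM in the WT. Other transcripts of both genes are not analysed here. Both calls were lost with the replicate number as a block (adjusted p = 0.210 for Cenpi and 0.156 for Cenpo, edgeR), and that of Cenpi with DESeq2 (adjusted p = 0.0501).

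Cenpa, the histone H3 variant of the centromere, was higher in the cKO in all 3 listed transcripts, none of which was called. Its most abundant one, with a retained intron, had 1.53 and 1.70 FPKM in the cKO and 0.34 and 0.37 FPKM in the WT (log2 fold change 1.64 ± 0.43, adjusted p = 0.084, edgeR), and with library totals it was called at 2.17 (adjusted p = 0.036). Of 35 kinetochore and centromere genes with other names, 5 were listed. Incenp (-1.83) and Aurkc (-1.60), of the chromosomal passenger complex, fell, beside 39.8% called lower over all genes in the table.

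The same genes were listed through several transcripts, and these did not always move together. Of the 51 genes 24 had 1 listed transcript and 27 had more. Coding transcripts made up 65 of the 102 (63.7%), with a median log2 fold change of -1.54, against -1.54 for all listed coding transcripts. The other 37 were 15 processed transcripts, 14 retained introns and 8 targets of nonsense-mediated decay. Their median was -2.61, against -2.11 for all listed transcripts of such types. Of the 14 retained introns 9 were lower and 5 higher by the authors' deposited table, which gave 582 lower and 634 higher over all its retained introns.

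A ratio of 2 transcripts within a library does not depend on the scaling. Each listed transcript was divided by the listed transcript of the same gene with the longest coding part, which gave 44 ratios in 22 genes. Both cKO ratios lay below both WT ratios in 22 of them (50%), above in 5 (11.4%), and overlapped in 17. Ratios of 1 gene share a denominator and are not independent, and Cep112 gave several. In Cep41, Cep57l1, Cntrl, Ift57 and Ift81 a lower ratio rests on a transcript at 0 in both cKO libraries. Over all listed genes, 3235 ratios made the same way lay below in 33.7% and above in 26.5%, and the difference between these shares was not tested. For 7 further transcripts the longest one was at 0 in a library and no ratio was computed. With 2 libraries against 2 the smallest two-sided p of an exact permutation test is 0.333, so these ratios are given without a test. The ratios named next were picked with their values in view.

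Cep350, which binds centrioles and microtubules, had ratios in both directions. Its 13307-base coding transcript had 31.1 and 27.3 FPKM in the cKO and 44.3 and 38.1 FPKM in the WT, a log2 fold change of -1.02 ± 0.22 at the edge of the threshold (adjusted p = 0.0498, edgeR). A 1089-base processed transcript had 12.5 and 13.4 FPKM in the cKO and 58.7 and 49.5 FPKM in the WT (log2 fold change -2.60, adjusted p = 0.016, edgeR). The ratio of the short to the long transcript was 0.401 and 0.489 in the cKO libraries and 1.33 and 1.30 in the WT libraries. The short form was thus the more abundant one per length in the WT and the less abundant one in the cKO. Other Cep350 forms did not all follow. A 1334-base transcript had the lower ratio in the cKO as well, at 0.385 and 0.348 against 0.468 and 0.403 in the WT, and the ratios of a 1346-base one overlapped, at 0.280 and 0.277 in the cKO and 0.255 and 0.338 in the WT. A 534-base transcript stood at 0.198 and 0.0458 of the long form in the cKO and at 0 in both WT libraries.

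Lower ratios in the cKO were also picked in other genes. A 2738-base processed transcript of Cep290 stood at 0.402 and 0.112 of the full-length form in the cKO and at 3.49 and 1.33 in the WT. A decay target of Pcnt with 875 bases stood at 0 and 0.206 of the full-length form in the cKO and at 1.82 and 2.44 in the WT. For Cep41, a protein of tubulin glutamylation in cilia, a 650-base retained-intron transcript stood at 0.244 and 0.223 in the cKO and at 0.774 and 0.607 in the WT. In these pairs the short form stood lower against the long form in both cKO libraries than in both WT libraries. Cep164 also had ratios in both directions: a 1880-base coding transcript stood at 0.0153 and 0.0554 in the cKO and at 0.214 and 0.142 in the WT, and a 5541-base one at 0.663 and 0.653 in the cKO and at 0.527 and 0.521 in the WT. Cep63 had a 1791-base coding transcript with a higher ratio in the cKO, at 0.419 and 0.354, against 0.248 and 0.202 in the WT.

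**Figure D3:**
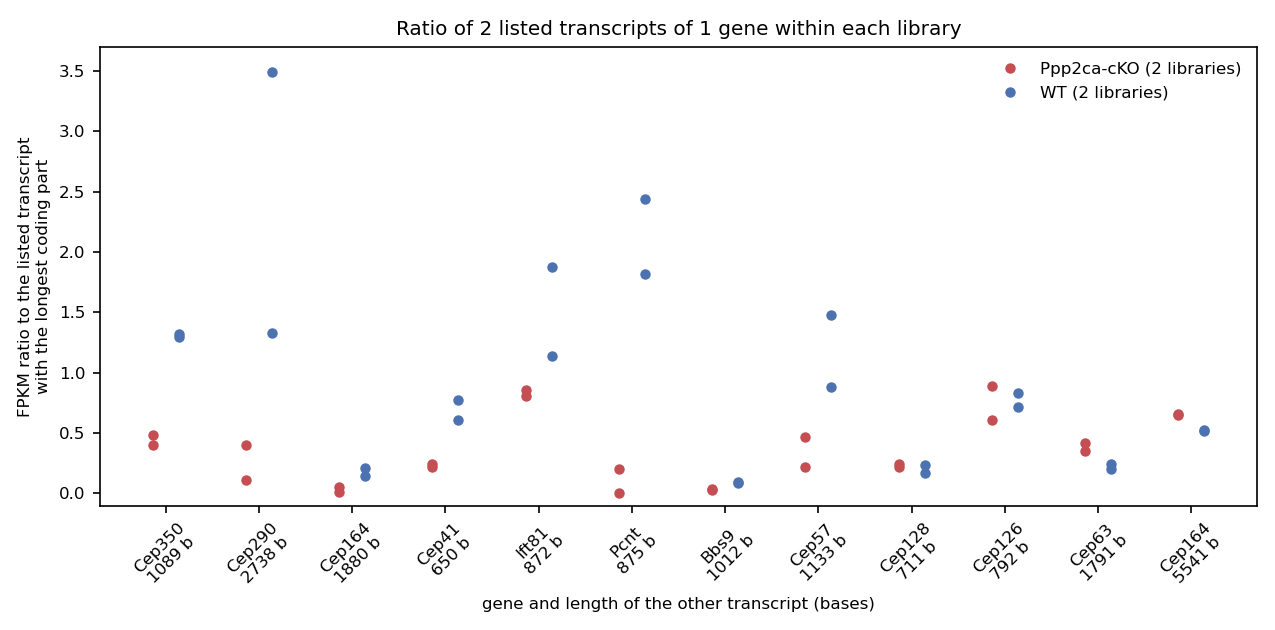
FPKM of a transcript divided by that of the listed transcript of the same gene with the longest coding part, in the 2 cKO libraries (red, left) and the 2 WT libraries (blue, right); x-axis labels give the gene and the length of the transcript on top of the ratio. The first 8 pairs have both cKO points below both WT points, Cep128 and Cep126 overlap, and Cep63 and the 5541-base Cep164 transcript have both cKO points above.

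Of the 27 genes with several listed transcripts, 7 had transcripts in both directions by the authors' deposited fold changes (25.9%), beside 17.7% of all such genes in the table. Cep170, Cep250, Cep350, Cntrl, Ift172 and Ift80 are described here. In 6 of the 7, the transcript that was higher in the cKO had 0 reads or 1 rounded read in the WT libraries. An exact 0 in estimated counts can come from how reads are shared between transcripts of 1 gene, and this was not tested.

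Ift80 (chromosome 3, 68892499 to 69004570, minus strand) encodes an IFT-B subunit, and its 4063-base coding transcript made the only call of a rise among the most abundant transcripts. It had 30.3 and 8.59 FPKM in the cKO libraries, from 2181 and 651 estimated reads, and 0.00 and 0.01 FPKM in the WT libraries, from 0.02 and 0.84 reads. The ratio was 1903 (95% exact counting interval 341 to 75175; adjusted p = 0.016, edgeR), with cKO library 1 well above cKO library 2. The second listed transcript, a retained intron of 2860 bases, had 6.60 and 5.75 FPKM in the cKO and 8.96 and 10.7 FPKM in the WT (log2 fold change -1.21 ± 0.29, adjusted p = 0.067, edgeR).

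Ift172 (chromosome 5, 31253277 to 31291116, minus strand), a peripheral IFT-B subunit, was listed by short transcripts. A 742-base retained-intron transcript had 9.91 and 29.7 FPKM in the cKO and 173 and 296 FPKM in the WT, and fell by 4.11 on the log2 scale (SE 0.63, adjusted p = 0.026, edgeR). Its mean level in the WT was the highest of any listed transcript of these genes. In WT library 1 alone, Cep295nl (192 FPKM) and Cep63 (183 FPKM) stood higher. A 774-base coding transcript had 1.53 and 4.19 FPKM in the cKO and 0 in both WT libraries, at least 13.4-fold higher in the cKO, and was not called (adjusted p = 0.0548, edgeR).

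Cep250, which links the centrioles of a pair, had its 7977-base transcript at 5.40 and 5.96 FPKM in the cKO and 7.39 and 9.37 FPKM in the WT (log2 fold change -1.10 ± 0.27, adjusted p = 0.074, edgeR). Its 2310-base coding transcript had 2.61 and 1.31 FPKM in the cKO and 0 in both WT libraries, at least 35.0-fold higher in the cKO (adjusted p = 0.027, edgeR).

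Cep170, a subdistal appendage protein, showed how far 1 library can carry a value. Its 6930-base coding transcript had 2.40 and 0.14 FPKM in the cKO and 0 in both WT libraries and was not called (adjusted p = 0.113, edgeR). The 1256-base processed transcript fell, with 6.75 and 17.2 FPKM in the cKO and 52.5 and 49.7 FPKM in the WT (log2 fold change -2.62 ± 0.50, adjusted p = 0.038, edgeR). Cntrl had a retained-intron transcript of 1397 bases at 7.52 and 5.84 FPKM in the cKO and 1.65 and 1.89 FPKM in the WT, with a fitted 1.39 that was not called (adjusted p = 0.111, edgeR).

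**Figure D4:**
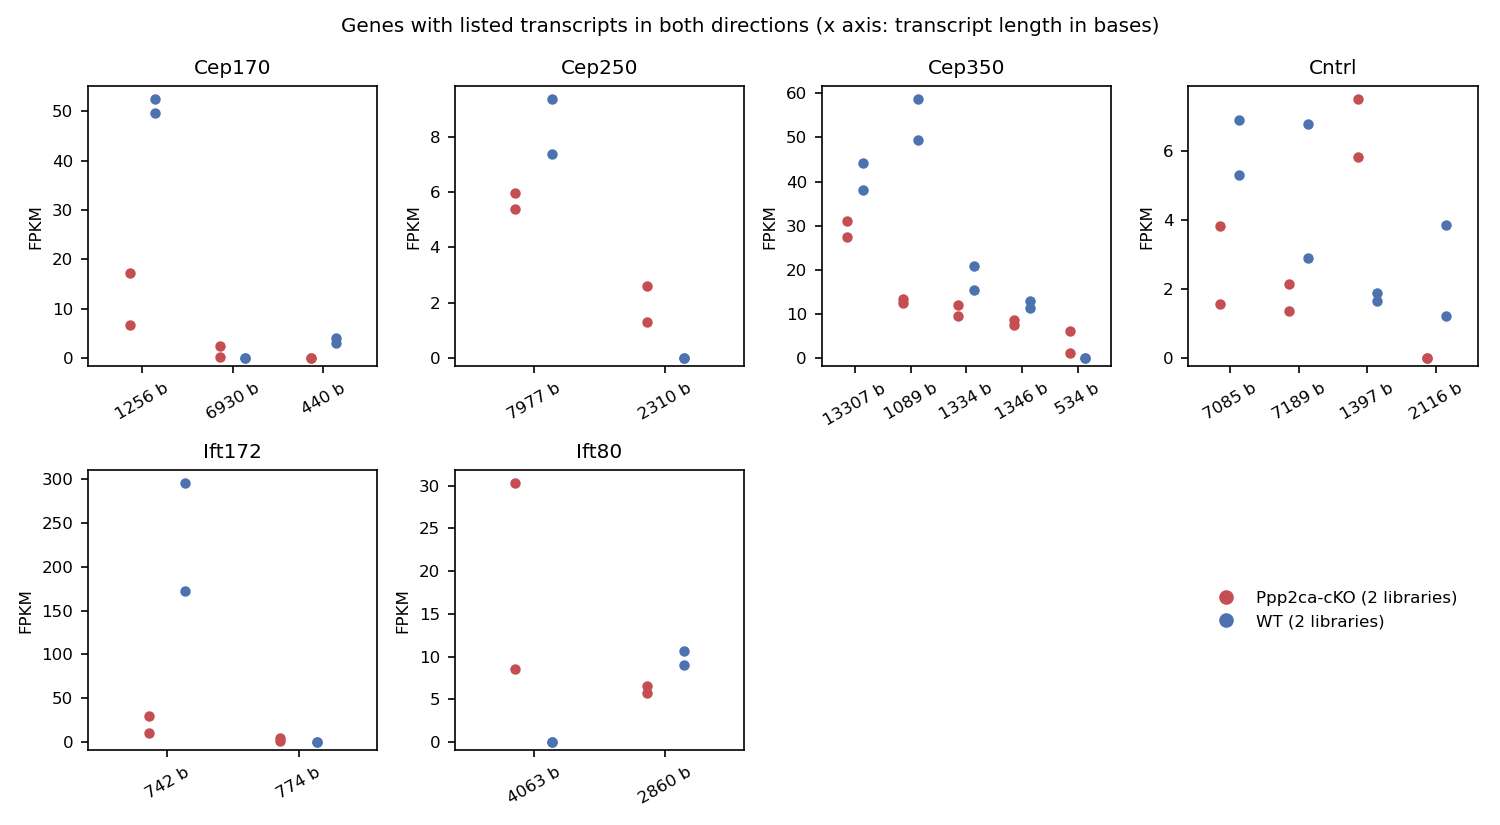
FPKM of every listed transcript of 6 genes with transcripts in both directions, in the 2 cKO libraries (red, left) and the 2 WT libraries (blue, right); the y-axis scale differs between panels and x-axis labels give transcript lengths in bases. In each panel at least 1 transcript is higher in both cKO libraries and at least 1 is lower.

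Transcripts with no reads in a genotype were about as common here as in the whole table. In the cKO 9 of the 102 had 0 reads in both libraries (8.82%), beside 8.14% of all listed transcripts, and in the WT 6 had 0 reads in both (5.88%), beside 7.27%. The largest such differences were in Ift57, where a 1101-base coding transcript at 5.99 and 12.7 FPKM in the WT was at least 154-fold lower in the cKO, in Cep41, where a 2393-base processed transcript was at least 119.8-fold lower, and in Ift81, where a 593-base coding transcript at 20.4 and 5.79 FPKM in the WT was at least 89.4-fold lower. Each of these 3 passed the edgeR test (adjusted p = 0.020, 0.016 and 0.032).

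Some of these transcripts can be told from the others of their gene by 1 exon junction. The lines below give 20 bases on each side of a junction, 5′ to 3′ on the strand of the gene, read from GRCm38. Capitals mark the bases after the junction, a join that no other annotated transcript of the gene has, and all lie in the coding part. They show which reads would set the form apart; reads over the junctions themselves are not analysed here. Ift57, Ift81 and Cenpo had 0 reads for these forms in the cKO, and Ift172 had 0 reads in the WT. The joined exon bases are 49711121 and 49711839 of chromosome 16 (plus strand) for Ift57, 122602750 and 122603442 of chromosome 5 (minus strand) for Ift81, 4231682 and 4231947 of chromosome 12 (minus strand) for Cenpo, and 31272081 and 31275903 of chromosome 5 (minus strand) for Ift172.
Ift57: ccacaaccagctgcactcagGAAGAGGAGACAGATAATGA
Ift81: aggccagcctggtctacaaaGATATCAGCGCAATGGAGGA
Cenpo: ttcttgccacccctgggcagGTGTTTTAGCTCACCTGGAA
Ift172: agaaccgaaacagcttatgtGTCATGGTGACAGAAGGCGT

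Some of the promoters hold motifs that the choice of genes did not use, and the difference from other windows was not tested. RFX factors are regulators of cilium genes, and CREM, a factor of the cAMP response element, acts in spermatids. RefSeq windows of 250 bases before and 50 after the start (GRCm38.p6) were found for 44 of the 51 genes, 57 windows in all. The RFX core GTTGCC, on either strand, was in 17 of the 57 (29.8%), beside 14.9% of the windows of all listed genes and 12.5% of all windows. The full response element TGACGTCA was in 4 (7.02%), beside 2.69% and 1.79%, and its core TGACG in 20 (35.1%), beside 25.9% and 20.8%; the full element contains the core on both strands. The windows of 1 gene overlap, and a match is a run of letters and not a bound site.

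The upstream parts of Cep41 and Cep57 are shown because they hold such motifs before the start. Cep41 holds the RFX core on both strands and neither form of the response element, and Cep57 holds the RFX core, the full element and a further core. Cep57, which acts in the matrix of the centrosome, fell by 1.74 on the log2 scale in its most abundant transcript, with 18.6 and 21.4 FPKM in the cKO and 46.7 and 46.0 FPKM in the WT (adjusted p = 0.023, edgeR). Full-length Cep41 was not called, at 7.31 and 7.09 FPKM in the cKO and 11.5 and 10.03 FPKM in the WT (log2 fold change -1.11 ± 0.25, adjusted p = 0.057, edgeR). Both are on the minus strand and are printed 5′ to 3′ along the gene. They are chr6:30693750-30693999 and chr9:13827108-13827357 of GRCm38.p6. Capitals mark GTTGCC or its complement GGCAAC, TGACGTCA, and the core TGACG or its complement, which can join into one run where they meet.
Cep41: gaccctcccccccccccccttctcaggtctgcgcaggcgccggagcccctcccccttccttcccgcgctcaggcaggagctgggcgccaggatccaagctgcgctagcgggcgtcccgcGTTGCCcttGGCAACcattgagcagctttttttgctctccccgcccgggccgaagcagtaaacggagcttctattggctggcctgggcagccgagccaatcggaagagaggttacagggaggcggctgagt
Cep57: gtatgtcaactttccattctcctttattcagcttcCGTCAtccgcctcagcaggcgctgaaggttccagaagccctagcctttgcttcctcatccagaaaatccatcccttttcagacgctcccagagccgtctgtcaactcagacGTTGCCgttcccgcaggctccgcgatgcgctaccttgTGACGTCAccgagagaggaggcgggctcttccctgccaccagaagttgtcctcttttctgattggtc

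The same libraries differed in markers of the cell types that a testis holds. Of 12 elongating spermatid markers 11 fell (median -4.18 on the log2 scale), with summed levels of 638 and 2871 FPKM in the cKO and 24721 and 27237 FPKM in the WT. All 9 listed round spermatid markers fell, with a median of -3.14 (121 and 175 FPKM in the cKO, 787 and 890.3 FPKM in the WT). Spermatocyte markers numbered 12, of which 8 were listed and tested and 3 fell, beside 39.8% of all genes in the table. Their median was -1.44, and that over all genes was -1.44 too. Their summed levels were 1694 and 2062 FPKM in the cKO and 3075 and 3779 FPKM in the WT. Of 7 spermatogonial markers Dmrtb1 fell and Ccnd2 rose, and 6 had fitted values above 0 (median 1.47 on the log2 scale; 214 and 259 FPKM in the cKO, 330.5 and 445 FPKM in the WT). Dmrtb1 made up most of that sum, and the other 6 summed to 51.7 and 51.0 FPKM in the cKO and 10.6 and 14.9 FPKM in the WT. Sertoli cell markers rose in 6 of 10 (median 1.40; 1685 and 1710 FPKM in the cKO, 475 and 486 FPKM in the WT), Leydig cell markers in 5 of 5 (817 and 1101 FPKM in the cKO, 174 and 152 FPKM in the WT) and leukocyte markers in 4 of 6 (116 and 109.9 FPKM in the cKO, 21.2 and 21.6 FPKM in the WT). Of 10 markers of myoid and endothelial cells only Pecam1 was listed. It rose at a low level, with 0.79 and 0.36 FPKM in the cKO and 0 and 0.02 FPKM in the WT. Markers outside the table are not analysed here. Among them are the spermatocyte markers Meioc, Mlh3, Sycp1 and Sycp3 and the Leydig markers Star, Insl3, Hsd3b1 and Cyp11b1. None of the listed germ cell or Sertoli cell markers was at 0 in a library. The Leydig marker Hsd17b3 was at 0 in both cKO libraries, and the leukocyte marker Itgam in both WT libraries. The part of these markers in the changes of the centrosome and IFT genes was not tested, and in whole testis fewer cells of a type and less RNA per cell cannot be told apart.

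The elongating spermatid markers were higher in cKO library 2 than in cKO library 1, by a median of 1.74 on the log2 scale. The most abundant transcripts of Ift172, Cep112, Cep170 and Cep131, picked with their values in view, were also higher in cKO library 2. The 1161-base Cep112 and 6930-base Cep170 transcripts were lower there. The most abundant transcript stood at 0.32 in Cep295nl and at -0.16 in Cep85l on this scale. Of the 99 transcripts 51 were higher in cKO library 2. The median over the 99 was 0.02, with a standard deviation of 1.12 (0.77 between the WT libraries). Reads of overlapping genes are a further limit, since the labels do not say whether strand was kept: 17 of the 102 transcripts share exon bases with another gene, at most 18.3% of their length, in a short Cep290 transcript.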

How the data were processed

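Testis RNA of 2 cKO and 2 WT libraries was analysed from the authors' table. Per the file headers, the deposited table holds expected counts (estimates that need not be whole) and FPKM values per transcript and library, the authors' mean normalized count (a signal over the 4 libraries), log2 fold changes, p-values and adjusted p-values, and transcript lengths. The deposited files of single libraries repeat the FPKM values. The genome build is mm9 per the submitters' processing notes, yet the gene coordinates in the table equal those of GRCm38 for 98.5% of transcripts and for all 102 described here, so GRCm38 is used. Neither the aligner nor the counter is given in the sources used here. All transcripts in the authors' deposited table have an adjusted p under 0.05 and a log2 fold change of 1 or more in size.

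The mean normalized counts gave back the authors' size factors (largest relative misfit 4.9e-10) and reads, length and FPKM gave the library totals (misfit up to 0.0129%). Expected counts were rounded and all listed transcripts tested in edgeR 4.0.16 (R 4.3.3; glmQLFit and glmQLFTest, genotype only, the authors' size factors) for the 10716 transcripts that passed filterByExpr (minimum count 10). The Benjamini-Hochberg adjustment ran over 64840 transcripts, those outside the table taking the largest possible p. The script was tested on simulated counts. Alternatives were scaling by TMM, RLE, the upper quartile, library totals or equal Sertoli counts, no filter or a filter at 1 CPM in 2 libraries, DESeq2 1.42.0, limma-voom (limma 3.58.1), the replicate number as a block, each library left out, another choice of the transcript per gene, and gene sums.

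The fit had a biological coefficient of variation of 32.5% (2 residual and 3.51 prior degrees of freedom), and only transcripts the authors had called entered it. Libraries of 1 genotype were not duplicates (chi-square per degree of freedom 28.4 in the cKO and 32.2 in the WT). A fold against a genotype at 0 reads was bounded with 3 counts over the group. Intervals and bounds cover counting error only. The members and the gene lists were chosen with earlier results of these data known. Named genes were the 2 most abundant of each family, the 5 smallest p-values, the 3 largest changes each way with a mean of at least 10 CPM and no overlap, genes listed in both directions, and genes at 0 in a genotype. Others were chosen after their values were seen. Some members count in every total but are not reported one by one here. Promoter windows came from RefSeq, and junctions from GENCODE vM21.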

Additional observations from a re-analysis of the deposited data

How the results depend on the processing

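Scaling and single libraries moved the counts. Against 50 transcripts called lower and 3 higher, and 27 and 1 genes by the most abundant transcript, TMM of the listed transcripts gave 11 and 10 transcripts and 4 and 4 genes. RLE gave 11 and 11 transcripts and 4 and 5 genes, the upper quartile 18 and 9 transcripts and 7 and 4 genes, library totals 29 and 8 transcripts and 15 and 3 genes, and equal Sertoli counts 88 transcripts and 45 genes lower. These shift the log2 fold changes by about 1.52, 1.56, 1.06, 0.53 and -1.29. Members tested numbered 97 to 99 in these fits. Among all listed transcripts, calls lower and higher numbered 4431 and 1113 of 10716 in the main fit. TMM gave 1295 and 3641 of 10568, RLE 1301 and 3650 of 10568, and the upper quartile 2075 and 3563 of 10602. Library totals gave 3238 and 2963 of 10655, and equal Sertoli counts 7399 and 319 of 10765. The median log2 fold change of the genes, -1.51, was 0.0676 with TMM, 0.10 with RLE, -0.42 with the upper quartile, -0.99 with library totals, -2.80 with equal Sertoli counts and -1.60 with the transcript of highest mean FPKM. TMM and RLE take most transcripts as unchanged, in a table that holds only changed ones. The sign turned with TMM and RLE in Cenpn (0.35 and 0.39), Cep350 (0.50 and 0.54), Ift74 (0.16 and 0.20), Bbs7 (0.48 and 0.52), Pcnt (0.23 and 0.26), Cenpe (0.0751 and 0.12), Cep250 (0.43 and 0.46), Ift122 (0.46 and 0.49) and Tctn2 (0.39 and 0.41), with the upper quartile in Cep350 (0.0412) and Bbs7 (0.0252), and with equal Sertoli counts in Tubgcp3 (-0.0076).

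DESeq2 called 80 of 102 transcripts lower and 5 higher, and 41 genes lower. Over all 11304 listed transcripts it called 5882 lower and 2042 higher. Leaving out each library in turn gave 0 to 71 transcripts lower and 0 to 11 higher, 0 to 36 genes lower and 0 to 3 higher, and medians from -1.60 to -1.44. All calls were lost when WT library 1 or WT library 2 was left out, and the spread then rests on the cKO pair. Of the 24 named genes compared, all kept direction and call with limma-voom and with no filter. With 1 CPM, 22 kept both and 1 lost its call, and the remaining gene was not in that fit. Same-numbered libraries deviated together only weakly (correlation 0.11 over 2 pairs). The replicate block gave 52 of 99 transcripts lower and 2 higher, beside 3912 and 697 of 10716 over all listed transcripts. With this block 33 genes were lower, and of the named genes Cenpi and Cenpo lost their calls and 5 gained one. Depth limits the transcripts at 0 in a genotype: 3 counts over the group are 1.21 normalized counts in the cKO and 1.79 in the WT, and folds beyond these are bounds.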
